A study of Mus musculus with 24 samples.

Results

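The comparison described here is that of mouse embryonic stem cell (mESC) lines heterozygous for a deletion of Smchd1 (het) with wild-type lines (wt) at day 2 of their differentiation to neuromesodermal progenitors, the last sample taken before the Wnt pathway was switched on. Its members are the 6 day 2 libraries, 3 het and 3 wt, of 24 libraries in the series, and the measurement is RNA sequencing of all genes. The lines were male and came from a cross in which the mother was Castaneus and Smchd1+/+, and the father had a C57BL/6 background, the genotype Smchd1 del/fl and the MMTV-Cre transgene, in which the MMTV promoter drives the Cre recombinase. The wt lines were therefore Smchd1 fl/+ and the het lines Smchd1 del/+, all from oocytes with normal SMCHD1, and which lines inherited the transgene is not given in the sources used here. The paper also describes a small share of FVB genome in its MMTV-Cre animals, and which lines inherited any of it is not given either. Lines were taken from 2i + LIF to DMEM + LIF, sampled as day 0, and then held in N2B27 with bFGF until day 2. Each line is a separate line, a wt and a het line of the same number are different lines, and the p-values measure the spread between 3 lines of a genotype.

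SMCHD1 is a chromosomal ATPase of the SMC family that helps to keep genes silent on the inactive X chromosome, at imprinted loci and in some gene clusters. When mESCs leave LIF in this medium they lose naive pluripotency genes and come to resemble the epiblast, from which a Wnt signal then draws primitive streak and trunk progenitors. mESC cultures can also hold some cells with the genes of extraembryonic endoderm, the lineage that wraps the early embryo. Its parietal branch lays down Reichert's membrane, a thick basement membrane of type IV collagen and laminin, and its visceral branch takes up nutrients by endocytosis. The comparison with wt lines asks what the loss of a paternal Smchd1 copy does to expression in the differentiating cells, apart from the protein laid down in the oocyte. In such bulk samples, fewer cells of a type and less RNA per cell cannot be told apart.

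The libraries held 15.5 to 20.6 M counts, with the 3 wt libraries all above the 3 het ones. A floor of 3 counts, chosen here, was 0.147 to 0.193 counts per M counts of the library (CPM, scaled for library composition). Log2 CPM correlated across genes at 0.956 to 0.974 between libraries of a genotype and at 0.952 to 0.974 between genotypes, and 0 pairs were identical. The label of epiblast-like cells was checked against its markers. The naive factor Esrrb was at 338 to 361 CPM in the wt lines at day 0 and at 14.03 to 19.6 CPM at day 2, and the naive factor Nr0b1 was at 81.1 to 119 and 2.93 to 3.75 CPM. The epiblast factors Pou3f1 and Dnmt3b were present at day 0, at 26.5 to 44.04 and 838 to 997 CPM over both genotypes, and higher at day 2, at 48.2 to 65.9 and 1077 to 1244 CPM. Otx2, at 50.004 to 68.3 CPM at day 0 and 52.9 to 83.2 CPM at day 2, did not separate the days. Nor did Fgf5, at 9.14 to 12.9 CPM at day 0 and 6.91 to 15.1 CPM at day 2, and the lines are called day 2 cells below. Pou5f1, the core pluripotency factor, was at 1089.6 to 1392 CPM at day 0 and lower at day 2, at 716 to 934 CPM. The mesoderm factors T and Mesp1 were at or below 1.42 and 0.0645 CPM at day 2. The neural factors Sox1 and Pax6 were higher at day 2, with Sox1 at 0.344 to 2.15 CPM at day 0 and 9.01 to 15.7 CPM at day 2, and Pax6 at 2.68 to 5.96 and 6.004 to 19.3 CPM. A further neural factor, Zic1, did not separate the days, at 0 to 0.241 and 0 to 0.712 CPM. One library stood apart on a chromosome: wt line 1 had a median log2 deviation of 0.18 over the genes of chromosome 8 from the mean of the 6 libraries, where the next largest such value of any library and chromosome was 0.06. The lower genes Col4a1, Col4a2, Plat, Cdh5, Gm26586 and Tpm4 lie on that chromosome. Gm26586 is an antisense RNA whose exons overlap those of Tpm4, so where the kit did not mark strand their reads cannot be told apart and Gm26586 is uncertain as a separate lower gene. With the genes of chromosome 8 left out 87 genes passed the test described next, 79 of them shared with the fit of all genes.

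At day 2, 85 of 15414 genes tested, or 0.551%, passed the edgeR quasi-likelihood test at an adjusted p under 0.05. Of these, 77 (0.500% of all genes) were lower in het and 8 (0.0519%) were higher. Of the 77 lower genes, 20 were in the 3 lists of extraembryonic endoderm and basement membrane genes, which held 52 of the genes tested (0.337%), and 51 were in no list. The lists were chosen with earlier results known, so this share is a description. The lower genes with the largest changes were Ceacam15, Prl2c5 and Psg29, which are in no endoderm list. Zinc finger genes of a cluster on chromosome 4 made up 6 of the 8 higher genes. For the 77 lower genes the log2 fold change ran from -2.58 to -0.47 around a median of -1.02. Their het mean was at a median of 49.5% of wt. None of the 85 genes had overlapping lines, where 15.9% of all genes tested did not overlap between genotypes. Over all genes tested the median log2 fold change was 0.002, and 1576 genes had an unadjusted p under 0.05, of which 636 were higher and 940 lower. The number of genes past the threshold moved with the lines included. Without het line 1, 2 or 3 it was 1, 3 and 0, without wt line 3 it was 8, and without wt line 1 or 2 it was 211 and 137. In each of these 6 fits all 85 genes kept their direction. As their lines do not overlap, leaving out a line could hardly turn it, so this is no sign of stability. The DESeq2 Wald test passed 233 genes, 51 higher and 182 lower, of which 74 were among the 85, and limma voom passed 53, of which 51 were.

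**Figure D1:**
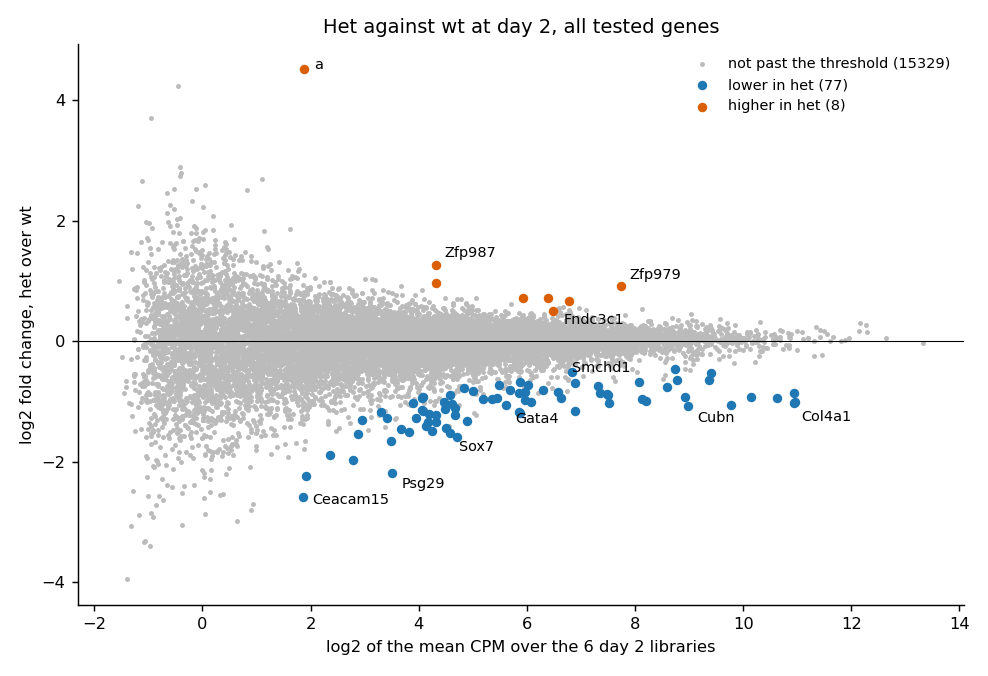
Log2 fold change of het over wt at day 2 against the log2 of the mean CPM, for each gene tested. Blue points are the 77 genes lower and orange points the 8 genes higher in het that passed the threshold, which lie mostly below the line at 0 and at mean levels from 3.63 to 1990.2 CPM.

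Smchd1 itself (chromosome 17, 71344489 to 71475343, minus strand, GRCm38) was lower in all het lines. It was at 186, 215 and 195 CPM in wt lines 1, 2 and 3 and 113, 119 and 122 CPM in het lines 1, 2 and 3, and the het mean was 59.6% of the wt mean. This gave a log2 fold change of -0.75 with an SE of 0.09 (adjusted p = 0.00824). The lines did not overlap, and they did not do so at day 0, day 2.5 or day 3, when het was at 65.7%, 66.2% and 54.3% of wt. The reads count transcripts of the whole gene, so RNA from a deleted allele that is still made would be counted too. Of its partner Lrif1 and the 6 other SMC family genes measured, 0 passed the threshold, and their log2 fold changes ran from -0.09 to 0.16.

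The zinc finger genes are shown with their promoters, because the 6 that rose share sequence there. They lie on distal chromosome 4, at the positions given with each sequence, in a tandem cluster of genes that encode KRAB-type zinc finger proteins, a class known for recruiting silencing factors to transposons. In the RefSeq promoter table (GRCm38.p6, 250 bases before to 50 after a gene's start), all 6 had an entry, and the longest run of letters common to the 6 was 15 bases, AAGCAAAAATCCAAA. It is in capitals at the left of each 120-base stretch below, which begins 144 to 203 bases before the start and ends upstream of it.
Zfp988 (chr4:147305452-147305571, plus strand): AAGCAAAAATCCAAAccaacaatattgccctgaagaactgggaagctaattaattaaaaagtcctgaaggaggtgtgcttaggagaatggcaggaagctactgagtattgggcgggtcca
Zfp534 (chr4:147702656-147702775, minus strand): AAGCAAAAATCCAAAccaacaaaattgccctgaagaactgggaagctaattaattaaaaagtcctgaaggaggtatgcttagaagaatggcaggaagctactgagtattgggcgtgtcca
Zfp981 (chr4:146514717-146514836, plus strand): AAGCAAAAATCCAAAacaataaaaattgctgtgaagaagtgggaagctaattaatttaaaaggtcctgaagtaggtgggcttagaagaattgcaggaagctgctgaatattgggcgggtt
Zfp979 (chr4:147642569-147642688, minus strand): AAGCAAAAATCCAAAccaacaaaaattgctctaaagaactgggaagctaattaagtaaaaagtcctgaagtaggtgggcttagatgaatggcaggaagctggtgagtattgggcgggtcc
Zfp600 (chr4:146156653-146156772, plus strand): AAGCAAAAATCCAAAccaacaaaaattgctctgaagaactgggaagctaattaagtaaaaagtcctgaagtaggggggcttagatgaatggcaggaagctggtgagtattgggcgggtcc
Zfp987 (chr4:146097123-146097242, plus strand): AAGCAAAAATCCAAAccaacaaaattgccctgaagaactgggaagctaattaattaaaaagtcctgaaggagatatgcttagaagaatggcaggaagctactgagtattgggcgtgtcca
Aligned in pairs, these stretches were 87.3% to 99.2% the same, with Zfp534 and Zfp987 the most alike and Zfp981 and Zfp987 the least. The run, searched on both strands, was found in the promoters of 8 of 27025 genes with an entry, or 0.0296%, all on chromosome 4. The other two were Rex2 and Zfp982, with log2 fold changes of 0.12 and 0.14 and adjusted p = 0.936 and 0.830. The run was found from the genes that rose, so its match to them is a description.

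Zfp979 was the most abundant of the 6, at 123, 208 and 113 CPM in wt and 277, 231 and 328 CPM in het in lines 1 to 3. This was a log2 fold change of 0.91 with an SE of 0.18 (adjusted p = 0.0319). Zfp988 was at 81.8, 93.96 and 77.01 CPM in wt and 137, 123 and 143 CPM in het. The gene had a log2 fold change of 0.68 with an SE of 0.11 (adjusted p = 0.0118). Zfp534, at 61.04, 70.9 and 59.6 CPM in wt and 102, 95.5 and 117 CPM in het, came to a log2 fold change of 0.71 with an SE of 0.11 (adjusted p = 0.0118). In each of these genes the het lines were all above the wt lines. Zfp981 was at 45.1, 51.9 and 41.5 CPM in wt and 79.4, 74.1 and 75.3 CPM in het. The difference was a log2 fold change of 0.72 with an SE of 0.12 (adjusted p = 0.0118). Zfp600 was at 15.8, 14.8 and 9.82 CPM in wt and 27.5, 23.7 and 28.1 CPM in het, and its log2 fold change was 0.97 (adjusted p = 0.0346). Zfp987 had the largest change of the 6, from 6.71, 15.3 and 13.001 CPM in wt to 30.97, 32.5 and 20.9 CPM in het. This was a log2 fold change of 1.27 with an SE of 0.26 (adjusted p = 0.0352).

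Of the 19 zinc finger genes of the cluster that were tested, 6 rose, beside 0.0519% of all genes, 17 had a positive log2 fold change, and the median was 0.44. In 11 of them the het lines lay above the wt lines without overlap, as in 7.67% of all genes. The summed level of the 19 was 768, 959 and 715 CPM in the wt lines and 1285, 1119 and 1323 CPM in the het lines. Among the members past no threshold, Zfp990 was at 69.96, 100.1 and 75.9 CPM in wt and 134, 107 and 124 CPM in het (adjusted p = 0.0735) and Zfp933 at 8.97, 10.3 and 5.51 CPM in wt and 6.11, 5.32 and 11.99 CPM in het (adjusted p = 0.968). The other 15 genes tested in the same region held 10 with a positive log2 fold change and 0 past the threshold. Genes named Zfp elsewhere in the genome were 351 in number. Their median log2 fold change was 0.05, and 0 passed. Copies in the cluster are so alike that reads can be shared: 12.6% of the 75-base windows of the longest transcript of Zfp987 and 80.2% of those of Zfp979 occurred in no other gene's transcripts, with the other 4 genes between these. So the share of each copy in the rise is uncertain. Without one line in turn, 0 to 7 of the 19 passed, with 0 in each fit that left out a het line or wt line 3, and the median ran from 0.42 to 0.68.

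**Figure D2:**
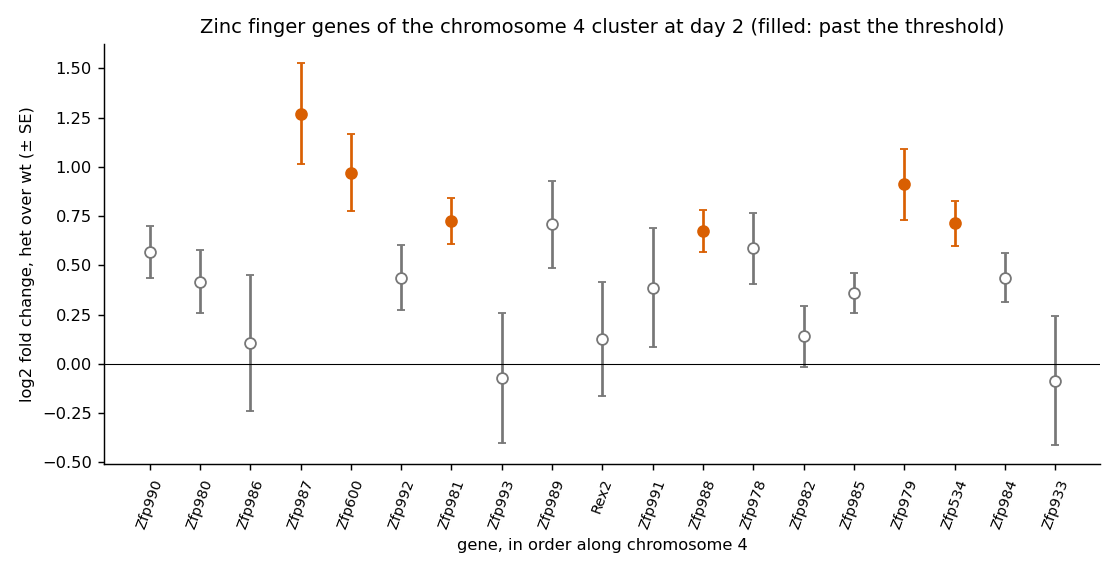
Log2 fold change of het over wt at day 2, with its SE, for the 19 zinc finger genes of the chromosome 4 cluster in their order along the chromosome. The 6 filled orange points passed the threshold and lie from 0.68 to 1.27, and 17 of the 19 points are above 0.

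Transcription factors and receptors of primitive endoderm, the precursor of both extraembryonic branches, leaned lower in het, and no test of the group was made. All 12 tested had a negative log2 fold change. The median was -1.02, beside 0.002 for all genes, and 4 fell, Sox7, Sox17, Gata4 and Pdgfra, where 0.500% of all genes did. Gata4, a factor that can by itself turn mESCs into primitive endoderm, was at 43.2, 75.4 and 79.2 CPM in wt lines 1, 2 and 3 and 29.1, 32.1 and 33.8 CPM in het lines 1, 2 and 3. The gene had a log2 fold change of -1.06 with an SE of 0.18 (adjusted p = 0.0170). Sox17, a factor of the same lineage, was at 10.97, 17.1 and 17.1 CPM in wt and 5.70, 5.85 and 7.09 CPM in het, a log2 fold change of -1.28 with an SE of 0.24 (adjusted p = 0.0225), and 76.96% of its 75-base windows were unique because it shares exons with a transcript on the other strand. Sox7, which is marked in parietal endoderm, was at 24.5, 44.8 and 36.6 CPM in wt and 10.2, 15.5 and 11.1 CPM in het (log2 fold change -1.52, SE 0.22, adjusted p = 0.00971). Pdgfra, a receptor used as a marker of primitive endoderm, went from 46.9, 99.9 and 96.8 CPM in wt to 32.2, 35.2 and 39.6 CPM in het (log2 fold change -1.19, SE 0.21, adjusted p = 0.0172). In each of the 4 genes wt line 1 was the lowest wt line and still lay above all het lines. Gata6, which acts upstream of the others, had 31.9, 43.1 and 53.8 CPM in wt and 18.6, 24.04 and 27.6 CPM in het, with no overlap and an adjusted p of 0.0509. Foxa2 was at 3.14, 7.07 and 8.34 CPM in wt and 3.32, 3.31 and 2.71 CPM in het (adjusted p = 0.362), with the lines overlapping, and Hnf4a was at 1.67, 1.37 and 3.92 CPM in wt and 0.297, 0.414 and 1.42 CPM in het (adjusted p = 0.442). Without wt line 3, het line 1 or het line 3, 0 of the 12 passed, without het line 2 1 passed, and without wt line 1 6 did, with medians from -1.30 to -0.90.

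The genes of parietal endoderm and its basement membrane held the most abundant transcripts that changed. Of 22 tested, 12 fell and 1, Fndc3c1, rose, beside 0.500% and 0.0519% of all genes, with a median log2 fold change of -0.90. Their summed level was 11020, 15563 and 21481 CPM in wt lines 1 to 3 and 7610.1, 9865 and 9316 CPM in the het lines. Col4a1, a chain of type IV collagen, was at 1986, 2360.2 and 3582 CPM in wt and 1048, 1476 and 1367 CPM in het. This was a log2 fold change of -1.03 with an SE of 0.16 (adjusted p = 0.0118). Col4a2, its partner chain, is transcribed from the same start region in the other direction (the genes overlap at chromosome 8, 11312805 to 11312826), and was at 866, 1053 and 1625 CPM in wt and 477, 631 and 602 CPM in het (adjusted p = 0.0118). Lama1, Lamb1 and Lamc1 encode chains of the main laminin of early basement membranes. Lama1 was at 1523, 2684 and 3783 CPM in wt and 1055, 1489 and 1407 CPM in het (log2 fold change -1.02, SE 0.21, adjusted p = 0.0453). Lamb1 was at 1337, 1987 and 2943 CPM in wt and 905, 1226 and 1127 CPM in het, and Lamc1 at 1596, 2667 and 3307 CPM in wt and 1159, 1552 and 1452 CPM in het, and their adjusted p were 0.0352 and 0.0425. Nid1, which links laminin to collagen, was at 169, 238 and 285 CPM in wt and 118, 139 and 121 CPM in het (adjusted p = 0.0129). In all of these matrix genes wt line 3 was the highest and het line 1 the lowest of the 6.

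Sparc, a collagen-binding secreted protein, was at 1007, 1416 and 2043 CPM in wt and 638, 884 and 835 CPM in het (log2 fold change -0.92, SE 0.18, adjusted p = 0.0276), and Serpinh1, the collagen chaperone, at 625, 825 and 958 CPM in wt and 473, 507 and 571 CPM in het (adjusted p = 0.0263). Plat, the tissue plasminogen activator that parietal endoderm secretes, went from 25.4, 33.7 and 30.02 to 12.99, 13.7 and 17.6 CPM. Srgn, a proteoglycan core protein, and Lgmn, a lysosomal protease, were at 49.97% and 50.05% of wt (adjusted p = 0.0172 and 0.0192). Other genes of the list missed the threshold, and 3 of the 22 had a positive log2 fold change. Hspg2, the perlecan core protein, was at 221, 309 and 401 CPM in wt and 206, 244 and 203 CPM in het (adjusted p = 0.198), Nid2 at 255, 268 and 354 CPM in wt and 243, 273 and 268 CPM in het (adjusted p = 0.682), and Col18a1, another basement membrane collagen, at 205, 231 and 217 CPM in wt and 275, 271 and 245 CPM in het with all het lines above the wt lines (adjusted p = 0.229). Fndc3c1, an X-linked gene whose role here is not known, was at 76.1, 72.3 and 74.6 CPM in wt and 104, 110.4 and 101 CPM in het. The gene had a log2 fold change of 0.50 with an SE of 0.10 (adjusted p = 0.0330). Without one line in turn, 0 to 16 of the 22 genes were lower past the threshold (0 without any het line, 2 without wt line 3 and 16 without wt line 1) and the median ran from -1.11 to -0.62.

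In the list of visceral endoderm uptake and apolipoprotein genes, 5 of the 19 tested fell (Cyp26a1, Amn, Spink1, Cubn and Dab2), beside 0.500% of all genes. The median log2 fold change was -0.90. Cubn, the cubilin receptor, was at 468, 693 and 885 CPM in wt and 229.6, 369.6 and 373 CPM in het (log2 fold change -1.07, SE 0.19, adjusted p = 0.0172). Amn, the membrane partner without which cubilin does not reach the surface, was at 10.3, 13.8 and 17.1 CPM in wt and 5.16, 6.44 and 6.64 CPM in het (adjusted p = 0.0453), and Dab2, an adaptor for endocytosis of such receptors, at 174, 267 and 299.9 CPM in wt and 91.5, 134 and 139 CPM in het (log2 fold change -1.02, SE 0.17, adjusted p = 0.0157). Lrp2, the megalin receptor that acts with cubilin, was at 292, 498 and 553 CPM in wt and 263, 279.7 and 323 CPM in het with overlapping lines (adjusted p = 0.114). Cyp26a1, an enzyme that degrades retinoic acid and is not particular to endoderm, was at 18.7, 19.05 and 24.96 CPM in wt and 7.59, 5.79 and 8.70 CPM in het (log2 fold change -1.51, SE 0.22, adjusted p = 0.00971). Spink1, a trypsin inhibitor, was at 44.8% of wt (adjusted p = 0.0192). Apoe, at 566, 228 and 526 CPM in wt and 418, 461 and 437 CPM in het, had a log2 fold change of -0.00. Afp, Ttr, Apoa1, Apoa4, Apoc2 and Fgb, secreted proteins of mature visceral endoderm, were at or below 0.784 CPM in every library and were not tested. The summed level of the 19 genes tested ran from 2117 to 2991 CPM in wt and from 1582 to 1866 CPM in het. Without one line in turn, 0 to 10 genes passed (0 without any het line or wt line 3, and 10 without wt line 1) and the median ran from -0.98 to -0.70.

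**Figure D3:**
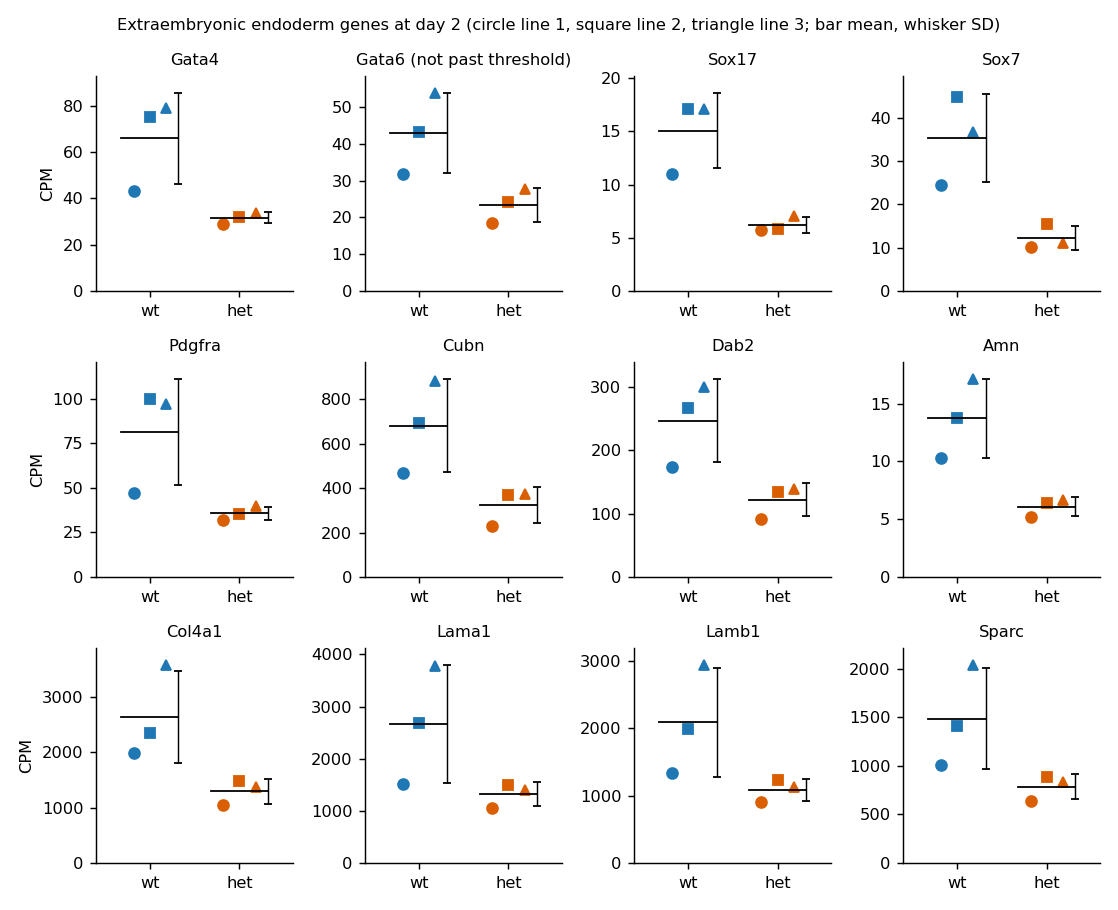
CPM of 12 genes of extraembryonic endoderm in each day 2 library, on axes from 0, with the mean and SD of each genotype. All 3 het points lie below all 3 wt points for each gene, as in 8.19% of all genes tested. Gata6 is the only one of the 12 that missed the threshold. The 12 were picked from the endoderm lists, and members whose lines overlap, such as Foxa2 and Lrp2, are not shown.

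Most of the lower genes shared the highest and the lowest wt line. Among the wt lines, line 3 had the highest level for 62 of the 77 lower genes and line 1 the lowest for 61, and among the 20 genes in the endoderm lists for 17 and 19. Wt line 3 was instead the lowest for 7 of the 77, among them Psg29, Tpbpa and Ctsj. Among the het lines, line 1 was the lowest for 55 of the 77, while the highest was line 2 for 40 and line 3 for 31. The spread among wt lines was thus shared by most of the genes and they are not independent measurements. The level of endoderm genes moved with genotype and with line, and its part in the result for the other lower genes was not tested. Of the 77 lower genes, 60 had a RefSeq promoter entry. In the 250 bases before the start, AGATAA or TGATAA, letters that GATA factors are known to bind, stood on either strand in 10% of these 60, in 5.71% of 35 members of the endoderm lists and in 8.81% of 11234 tested genes with an entry.

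Of the 77 lower genes, 51 belonged to no list, and the groups in which they are described here were made after their values were seen. Several encode enzymes and helpers of collagen in the secretory pathway. Loxl2, a lysyl oxidase that crosslinks collagen, was at 155, 236 and 245 CPM in wt and 110.0, 113 and 127 CPM in het (log2 fold change -0.86, SE 0.14, adjusted p = 0.0118, with 55.7% of its windows unique). Plod2, a lysyl hydroxylase, was at 706, 805 and 907 CPM in wt and 526, 574 and 569.6 CPM in het (log2 fold change -0.53, SE 0.09, adjusted p = 0.0157). P4ha1 and P3h2, which hydroxylate proline, were at 63.98% and 39.3% of wt (adjusted p = 0.0226 and 0.0347). Kdelr3, which returns proteins to the endoplasmic reticulum, was at 51.7% of wt (adjusted p = 0.0356). The matrix genes Lama4, Col27a1, Egflam and Tinagl1 were at 36.4% to 48.7% of wt.

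A second set is better known from placenta or trophoblast. Psg29, a pregnancy-specific glycoprotein (chromosome 7, 17203477 to 17215760), was at 17.3, 25.5 and 13.3 CPM in wt and 4.09, 2.84 and 5.41 CPM in het. The gene had a log2 fold change of -2.19 with an SE of 0.29 (adjusted p = 0.00824). Tpbpa, a spongiotrophoblast gene, was at 23.9, 33.4 and 18.7 CPM in wt and 6.41, 11.7 and 10.5 CPM in het (log2 fold change -1.41, SE 0.25, adjusted p = 0.0172). These were the 2 of 16 tested members of the placental list that passed, beside 0.551% of all genes, and the list had a median log2 fold change of -0.34. Outside the list, Ceacam15 went from 6.42, 5.12 and 7.15 CPM in wt to 1.07, 1.0042 and 1.03 CPM in het (log2 fold change -2.58, SE 0.39, adjusted p = 0.0114). Ctsj, a cathepsin of the placental family, was at 34.2, 31.4 and 26.1 CPM in wt and 14.3, 12.1 and 15.6 CPM in het (log2 fold change -1.13, SE 0.17, adjusted p = 0.0114), and Prl2c5, a prolactin-family hormone, at 6.61, 7.86 and 4.27 CPM in wt and 0.831, 1.42 and 1.74 CPM in het (adjusted p = 0.0225). Nrk, an X-linked kinase of the placenta, was at 61.6% and Plac8 at 54.99% of wt (adjusted p = 0.0118 and 0.0118). Factors that define trophoblast were low and past no threshold. Elf5 was at or below 0.475 CPM, Gata3 was at 4.70, 2.43 and 2.18 CPM in wt and 1.602, 3.19 and 3.93 CPM in het, Eomes at 7.79, 7.65 and 8.19 CPM in wt and 6.47, 7.86 and 9.22 CPM in het and Cdx2 at 1.57, 1.64 and 1.29 CPM in wt and 1.90, 3.25 and 1.9983 CPM in het, with adjusted p = 0.975 for Gata3, 0.998 for Eomes and 0.736 for Cdx2. At day 0, Psg29 had 0 counts in all 6 libraries.

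Further lower genes act at the cell surface or in signalling. Tfpi, an inhibitor of tissue factor, was the most abundant, at 484, 623 and 806 CPM in wt and 292, 352 and 359 CPM in het (log2 fold change -0.93, SE 0.14, adjusted p = 0.0109). F2r, the thrombin receptor, was at 53.8% of wt, Flt1, a VEGF receptor, at 56.3%, and Cdh5, an endothelial cadherin, at 53.97% (adjusted p = 0.0192, 0.0172 and 0.0192). Cmklr1, a chemerin receptor, was at 23.8, 27.1 and 34.9 CPM in wt and 9.91, 13.8 and 9.99 CPM in het (log2 fold change -1.35, SE 0.20, adjusted p = 0.0105). Pth1r, the receptor for parathyroid hormone-related protein, which promotes parietal endoderm, was at 50.6, 83.7 and 105 CPM in wt and 32.2, 38.9 and 35.5 CPM in het (log2 fold change -1.17, SE 0.20, adjusted p = 0.0136). Frzb and Wnt11 act on Wnt signals. Frzb, a secreted inhibitor, was at 18.2, 26.2 and 39.4 CPM in wt and 7.36, 11.7 and 10.7 CPM in het (log2 fold change -1.49, SE 0.26, adjusted p = 0.0157), and Wnt11, a ligand, at 22.05, 40.7 and 43.6 CPM in wt and 16.3, 15.5 and 13.9 CPM in het (log2 fold change -1.22, SE 0.22, adjusted p = 0.0172). Ccnd2, a cyclin that drives entry into S phase, was at 59.2, 94.5 and 95.9 CPM in wt and 39.7, 44.2 and 42.7 CPM in het (log2 fold change -0.98, SE 0.16, adjusted p = 0.0118), and 0 of the other 19 cell cycle genes of its list passed. Lmna, which encodes the nuclear lamins A and C, was at 28.6, 29.4 and 45.998 CPM in wt and 14.8, 17.4 and 16.1 CPM in het (log2 fold change -1.11, SE 0.19, adjusted p = 0.0157). Tpm4, a tropomyosin of stress fibres, was at 507, 447 and 526 CPM in wt and 312, 363 and 396 CPM in het (adjusted p = 0.0453). Lmna and Tpm4 were the 2 of 25 contractile and stress fibre genes that passed, beside 0.551% of all genes, with a list median of -0.08. Bc1, a short non-coding RNA known from neurons (chromosome 7, 144914470 to 144914637), was at 54.97, 32.8 and 30.02 CPM in wt and 14.5, 14.1 and 10.4 CPM in het (log2 fold change -1.59, SE 0.22, adjusted p = 0.00824), and Camk2a, a kinase also best known there, at 11.7, 17.7 and 21.6 CPM in wt and 6.70, 4.61 and 4.83 CPM in het (adjusted p = 0.0118). Teddm2 (adjusted p = 0.0118) shares exons with Glul on the other strand, which was lower too, and whether its reads are its own cannot be told where the kit did not mark strand.

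The gene a, or nonagouti, which encodes a signalling peptide that switches hair pigment, had the largest change of any gene past the threshold, and its lines did not behave alike. It was at 0.441, 0.264 and 0.198 CPM in wt lines 1, 2 and 3 and 2.20, 10.9 and 7.93 CPM in het lines 1, 2 and 3, from 9, 5 and 4 counts in wt and 37, 185 and 123 counts in het. Its log2 fold change of 4.51 with an SE of 0.62 (adjusted p = 0.00824) came to 22.7-fold. The rise at day 2 was largest in het lines 2 and 3 and smaller in line 1. On days 0, 2.5 and 3 het line 1 was below all wt lines, at 0.106, 0.508 and 0.365 CPM, while het lines 2 and 3 were between 3.48 and 8.05 CPM. At day 0 wt line 1 was at 7.24 CPM, as high as het line 2 at 7.11. Without wt line 3, het line 2 or het line 3 the gene did not pass in edgeR (adjusted p = 0.0507, 0.0707 and 0.0835), nor did it by limma voom (adjusted p = 0.196). Its annotated span (chromosome 2, 154791402 to 155051012, plus strand) overlaps that of Raly on the same strand, and 1 of its annotated transcripts begins in an exon of Raly. Its longest transcript lacks that exon and had 100% of its windows unique. Which transcript the reads came from is not given by counts per gene. Raly was at 268 CPM in wt and 246 CPM in het on average (adjusted p = 0.663). The other neighbours measured, 12 genes of the list around a, held 0 past the threshold.

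**Figure D4:**
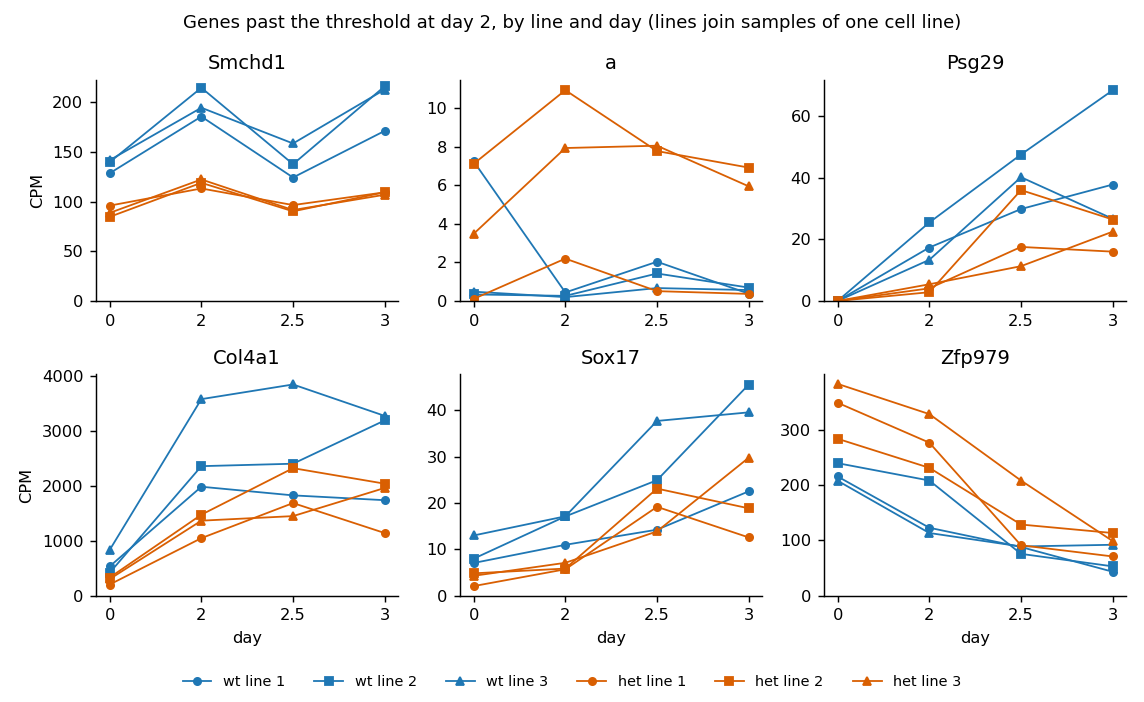
CPM of 6 genes that passed the threshold at day 2, in each of the 6 lines on days 0, 2, 2.5 and 3, with blue for wt and orange for het. Smchd1 keeps the genotypes apart on all 4 days, a is high in het lines 2 and 3 on all of them and in wt line 1 at day 0, and the wt and het lines of Col4a1, Sox17 and Psg29 overlap at day 2.5.

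Genes of the epiblast and of the lineages that follow showed 0 calls. Among the naive pluripotency factors (14 tested, median log2 fold change -0.15), Zfp42 was at 29.98, 25.6 and 27.04 CPM in wt and 27.5, 29.4 and 28.2 CPM in het and Esrrb at 19.6, 14.03 and 19.4 CPM in wt and 20.5, 28.9 and 28.9 CPM in het (adjusted p = 0.963 and 0.270). Klf5 was at 48.4, 59.04 and 70.01 CPM in wt and 31.1, 37.5 and 42.4 CPM in het, with no overlap and an adjusted p of 0.0632. In 4 of the 14 naive factors the lines did not overlap (3 lower and 1 higher in het), beside 15.9% of all genes. Among the core factors (12 tested, median 0.07), Pou5f1 was at 934, 716 and 735 CPM in wt and 853, 845 and 813 CPM in het and Nanog at 57.7, 44.3 and 74.5 CPM in wt and 69.5, 58.4 and 79.1 CPM in het (adjusted p = 0.866 and 0.696). Formative and primed epiblast factors (17 tested, median 0.08) had 77.8, 65.5 and 52.9 CPM in wt and 83.2, 68.6 and 66.4 CPM in het for Otx2 and 6.91, 14.7 and 10.7 CPM in wt and 15.1, 8.92 and 10.1 CPM in het for Fgf5 (adjusted p = 0.780 and 0.963). The summed level of this list was higher in all het lines, at 2731, 2663 and 2561 CPM in wt and 2957, 2870 and 2844 CPM in het. Of its members, 11 had a positive and 6 a negative log2 fold change. Fst, a secreted activin inhibitor that stands in both the epiblast and the parietal lists, was the one outlying member, at 14.7, 47.7 and 40.3 CPM in wt and 10.9, 9.22 and 18.6 CPM in het (adjusted p = 0.0789). For primitive streak and mesoderm factors (11 tested, median 0.15), neural factors (9 tested, median 0.01) and Wnt feedback genes (15 tested, median 0.09) the count was 0 as well. Nodal, at 12.1, 15.9 and 13.5 CPM in wt and 17.1, 18.6 and 23.98 CPM in het, and Sox1, at 9.01, 15.7 and 11.1 CPM in wt and 11.3, 10.6 and 12.3 CPM in het, had adjusted p = 0.329 and 0.964. A p that missed the threshold does not show that the genotypes were alike in these genes.

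Gene clusters known as SMCHD1 targets are given with their values. Clustered protocadherins, cell adhesion genes with shared constant exons, had a positive log2 fold change in 34 of 34 tested, with a median of 0.20 and 0 past the threshold. The 13 alpha and 21 gamma members were counted over shared exons and had nearly the same values within each group, so they stand for 2 measurements. The alpha genes lay near 2 CPM in wt and ran from 0.89 to 5.61 CPM in het, with het line 1 below all wt lines, and the wt and het lines of each gamma gene overlapped. In the imprinted Snrpn cluster, 7 of 9 genes had a positive log2 fold change with a median of 0.26, and Snrpn was at 227, 249 and 204 CPM in wt and 269.8, 257 and 249 CPM in het and Ndn at 15.1, 13.3 and 7.89 CPM in wt and 16.7, 15.4 and 11.4 CPM in het (adjusted p = 0.502 and 0.788). Of 41 other imprinted genes tested 0 passed, and the median was 0.08. The Hox1 to Hox9 genes were barely expressed before Wnt activation: 11 of 27 were tested, 9 of these had a negative log2 fold change with a median of -0.49, and 0 passed. That median was -0.20 without wt line 1 and -0.78 without wt line 3, and with a mean of at least 50 counts only 1 of the genes was left, at -0.041. Hoxb1 was at 2.79, 2.22 and 2.03 CPM in wt and 1.78, 1.06 and 0.193 CPM in het (adjusted p = 0.600). Germline genes had a median of 0.18 with 0 past the threshold. Mitochondrially encoded genes, also with 0 past it, summed to 3648, 5499.6 and 3949 CPM in wt and 5241, 4849 and 4867 CPM in het, so that wt line 2 was above and the other wt lines below all het lines. Their median was 0.18 with all lines, 0.57 without wt line 2, when 5 of 12 passed as higher, and 0.10 without wt line 1.

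**Figure D5:**
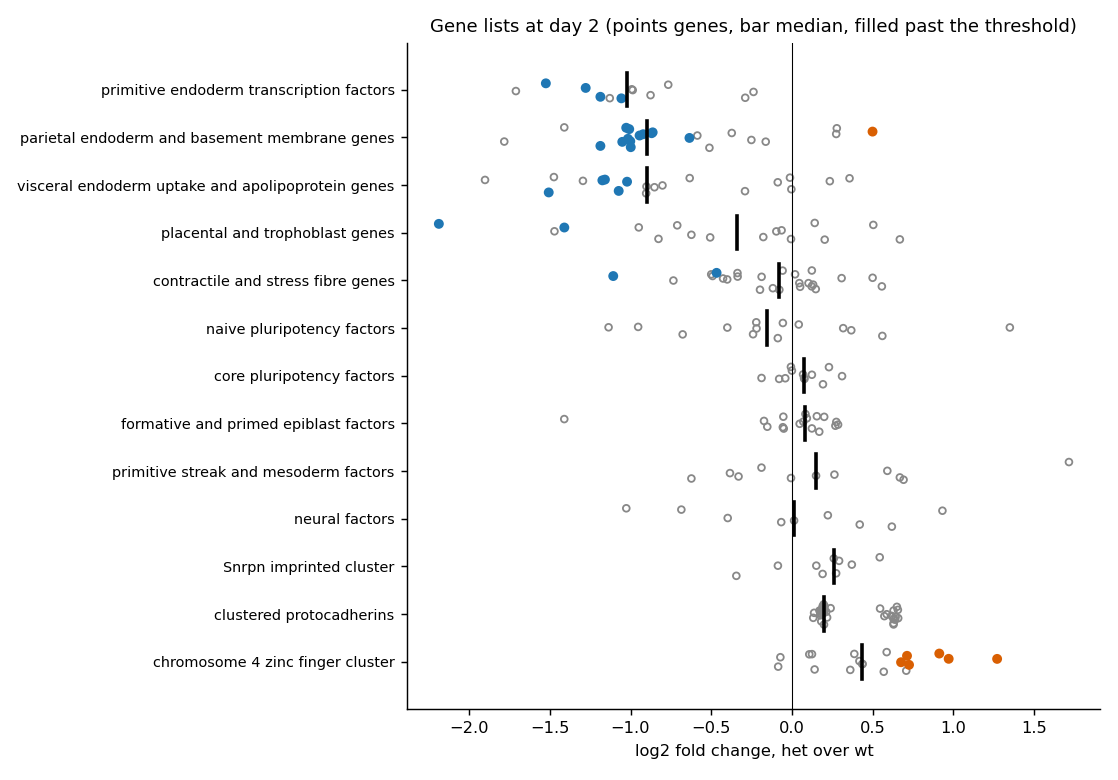
Log2 fold change of het over wt at day 2 for the tested members of 13 gene lists, with the median of each list as a black bar. Filled points passed the threshold, and they stand in the 3 endoderm lists, the placental and contractile lists and the chromosome 4 zinc finger cluster.

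The same 85 genes were followed in the other days, which come from the same 6 lines and are not independent of day 2. Of the 77 lower genes, 72 were measured in wt at day 0, of which 67 were lower in het, with het at a median of 67.8% of wt. At day 2.5 the median was 76.7%, with 72 of 77 lower, and at day 3 it was 65.2%, with 76 of 77 lower. All het lines lay below all wt lines for 35 of the 77 genes at day 0, where 7.70% of all 15414 genes did so. At day 2.5 this held for 1 of the 77, beside 5.18% of all genes, and at day 3 for 15, beside 5.72%. The summed parietal list was at 4489, 4351 and 6383 CPM in wt and 3046, 3733 and 3605 CPM in het at day 0, and at 8522, 13143 and 20036 CPM in wt and 10260.0, 12780.0 and 9251 CPM in het at day 2.5. At day 0 the genotypes were thus apart, and at day 2.5 wt line 1 lay below all het lines. The 8 higher genes were higher in het on all days, at a median of 129% of wt at day 0, 149% at day 2.5 and 135% at day 3. The lowest het line was above the highest wt line for 5 of the 8 at day 0, 4 at day 2.5 and 1 at day 3, beside 8.56%, 6.48% and 8.27% of all genes. Whether the genotype difference itself changed was tested as an interaction in edgeR, without a term for the line. It did so for 0 of 16387 genes between day 0 and day 2 (1034 at an unadjusted p under 0.05), for 0 of 16569 between day 2 and day 2.5 (850) and for 0 of 16552 between day 2 and day 3 (720). Each line was sampled on every day, and with the 6 lines as a replicate block the counts were 2, 0 and 0. The 2 genes were Tfpi and Ahnak, named after their values were seen, and the smallest adjusted p in edgeR was 0.0462. The DESeq2 Wald test, without the block, gave 10, 0 and 2 genes.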

How the data were processed

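RNA was sequenced from 6 male mESC lines on 4 days, and the deposited gene counts of the 6 day 2 libraries were compared. Per the paper's methods and the submitters' notes, the authors trimmed single-end reads with Trim Galore 0.4.4, aligned them to GRCm38 with HISAT2 2.0.5 and counted reads per gene in SeqMonk. Both stranded and non-stranded kits were used, and which library had which is not given in the sources used here. The deposited log2 values and 8 columns of group means were not used.

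Groups and line numbers came from the sample titles. From the counts, genes were filtered with filterByExpr, scaled by TMM, and tested with the quasi-likelihood test of edgeR 4.0.16 in R 4.3.3 on the 6 libraries without covariates, with Benjamini-Hochberg adjustment over all genes tested and a threshold of 0.05. Counting error alone makes low genes imprecise, and total counts ran from 15.5 to 20.6 M. How many genes the test misses or calls in error where genes share the spread between lines, as here, was not tested. An exact permutation test of 3 against 3 lines cannot go below p = 0.1. Same-numbered wt and het lines are different lines, and their deviations from the group means correlated at -0.018, -0.072 and -0.026, so numbers were not taken as pairs of genotypes. Across days, libraries of the same line are paired by the labels, and their deviations from the group means correlated with those at day 2 at -0.021 to 0.163. For het line 1 at days 0 and 2.5 and het line 3 at day 2.5, the best match at day 2 was not the line's own library.

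The genes, 32 lists and tests were chosen with earlier results of these data known. By the rule for named genes, these were Smchd1, up to 12 higher genes and the 15 lower genes without overlap with the smallest adjusted p, fixed anchors of each list with up to 5 further members past the threshold, and the 3 higher and 3 lower genes of largest mean CPM. Other genes named were picked after their values were seen. Alternatives were other scaling (DESeq2 1.42.0 size factors, library totals), other filters, the DESeq2 Wald test, limma 3.58.1 voom, a replicate block, leaving out each line, all 24 libraries in 1 fit, thinned counts and leaving out chromosome 8. Windows of 75 bases of each gene's longest GENCODE transcript were compared with all transcripts of other genes to find shared sequence.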

Additional observations from a re-analysis of the deposited data

How the results depend on the processing

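All 85 genes kept their direction in every alternative that tested them, which their lack of overlap between genotypes made near certain in advance. The count past the threshold moved with the filter, the tool and the lines. Against 85 genes (8 higher, 77 lower), 384 passed with no filter beyond 1 count (83 and 301), 131 with a mean of at least 50 counts (15 and 116), 233 by the DESeq2 Wald test (51 and 182), 53 by limma voom (8 and 45) and 23 in 1 fit of all 24 libraries (3 and 20), of which 14 were among the 85. Thinned counts gave 95 (12 and 83). The share of lower genes was 90.6%, and 78.4% with no filter, 78.1% by DESeq2 and 75.2% without wt line 2. Leaving out a line gave 0 to 211 genes, 0 to 34 higher and 0 to 190 lower. With the replicate number as a block 97 genes passed (8 and 89), 76 of them shared, though same-numbered wt and het lines are not pairs. For the interactions, where the 6 lines do pair the days, this block gave 2, 0 and 0 genes.

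Of 585 values of 39 named genes under alternatives, 390 stayed past the threshold and 195 did not. The direction turned in 0, as their lack of overlap made near certain. List medians moved beyond the spread between lines without 1 line for primitive endoderm factors (-1.30 to -0.90), contractile genes (-0.20 to -0.040), zinc fingers (0.42 to 0.68), mitochondrial genes (0.10 to 0.57) and Hox genes (-0.78 to -0.20), the last also at a mean of 50 counts (-0.041) and by limma voom (-0.74). Interactions gave 58, 33 and 35 genes with no filter, 10 and 2 by DESeq2 for days 0 to 2 and 2 to 3, and without 1 line 0 to 0, 0 to 2 and 0 to 1. The cause was not tested. Of 35591 genes, 15414 passed the filter on low counts, and the others were not tested.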

Other observations

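The remaining gene lists held 0 genes past the edgeR threshold at day 2, and their members are given here as values. Fibroblast feeder and mesenchymal markers (11 tested, median log2 fold change 0.12) were low in both genotypes, with summed levels over all 13 markers of 43.6 to 49.96 CPM in wt and 49.6 to 51.9 CPM in het. Col1a1 was at 1.67, 2.32 and 1.59 CPM in wt and 1.54, 2.48 and 1.87 CPM in het (adjusted p = 0.981) and Col3a1 was at 3.04, 1.79 and 2.03 CPM in wt and 0.297, 0.827 and 0.451 CPM in het (adjusted p = 0.246). Among the simple epithelial keratins and junction genes, which are shared by endoderm and other epithelia (21 tested, median log2 fold change -0.05), Krt8 was at 107, 120.4 and 139 CPM in wt and 82.1, 111 and 81.6 CPM in het (adjusted p = 0.220) and Cdh1 was at 707, 546 and 557 CPM in wt and 671, 695 and 661 CPM in het (adjusted p = 0.609). The wt and het lines of both Krt8 and Cdh1 overlapped.

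Members of the signalling lists lay on both sides of 0. The lists were FGF/ERK feedback and immediate early genes (24 tested, median log2 fold change 0.12), and Nodal and BMP pathway genes (23 tested, median log2 fold change 0.04). The first ran from -0.79 to 0.81, with 7 of 24 genes not overlapping between genotypes (5 higher and 2 lower in het), and the second from -1.92 to 1.22, with 9 of 23 not overlapping (3 higher and 6 lower), beside 15.9% of all genes. Dusp6, a phosphatase that ERK signalling induces, was at 217, 204 and 188 CPM in wt and 246, 219 and 239 CPM in het (adjusted p = 0.441). Id1, a BMP target, was at 5.49, 5.22 and 7.24 CPM in wt and 4.57, 4.49 and 4.13 CPM in het (adjusted p = 0.676). Axin2, a Wnt feedback gene, was at 8.67, 6.07 and 5.66 CPM in wt and 7.54, 9.10 and 6.64 CPM in het (adjusted p = 0.888). In metabolism the lists were glucose uptake and glycolysis genes (22 tested, median log2 fold change 0.06) and threonine, serine and glycine metabolism genes (16 tested, median log2 fold change 0.05). Ldha was at 3603, 3576 and 3525 CPM in wt and 3661, 3553 and 3495 CPM in het (adjusted p = 0.999) and Tdh was at 10.4, 10.5 and 14.1 CPM in wt and 10.6, 11.7 and 11.7 CPM in het (adjusted p = 0.975).

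Chromatin genes, with which SMCHD1 works, were Polycomb and DNA methylation enzymes (30 tested, median log2 fold change 0.10) and heterochromatin and H3K9 methylation genes (19 tested, median log2 fold change 0.09). The first list summed to 5509, 5037 and 5173 CPM in wt and 5748, 5690 and 5808 CPM in het, with 22 members positive and 8 negative. The second summed to 4066, 3844 and 3809 CPM in wt and 4262, 4206 and 4404 CPM in het, with 15 positive and 4 negative. Both sums were higher in all het lines. Ezh2 was at 289, 228 and 262 CPM in wt and 286, 267 and 283 CPM in het (adjusted p = 0.781), and Setdb1 was at 114, 116 and 118 CPM in wt and 125, 118 and 118 CPM in het (adjusted p = 0.895). The last lists were p53 pathway genes (23 tested, median log2 fold change 0.04), interferon-stimulated genes (13 tested, median log2 fold change 0.11) and 2-cell-like state genes (6 tested, median log2 fold change 0.24). Cdkn1a, a cell cycle inhibitor that p53 induces, was at 44.3, 35.1 and 37.1 CPM in wt and 47.2, 37.6 and 46.5 CPM in het (adjusted p = 0.743), and Ifitm3 was at 27.8, 24.5 and 21.9 CPM in wt and 31.7, 38.2 and 34.5 CPM in het (adjusted p = 0.201).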
